A study of Mus musculus with 24 samples.

Results

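Medium spiny neurons are the projection neurons of the striatum, and 9 of their genes are described here: Drd1, Tac1 and Isl1 of the direct pathway, Drd2, Adora2a, Gpr6 and Gpr52 of the indirect pathway, and Ppp1r1b and Bcl11b of both. Every probe that the platform annotation gives to these genes was used, which gave 13 probes for 7 of the 9 genes among the 13748 genes tested. Adora2a and Gpr52 were not analysed here. All 13 probes passed the filter on dim probes, a mean log2 intensity above 7.05.

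Direct-pathway neurons send their axons to the output nuclei of the basal ganglia and carry the D1 dopamine receptor, which raises cAMP. Indirect-pathway neurons reach the same nuclei by way of the globus pallidus and carry the D2 receptor, which lowers cAMP. Opioids such as morphine raise dopamine release in the striatum, and both kinds of neuron receive that dopamine.

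Striatal RNA was hybridised to 24 Illumina arrays in 4 groups of 6, from C57BL/6J mice that were 6 to 10 weeks old. Mice had drunk either morphine, an opioid agonist, or the sweetener saccharin, which served as control, over a long period, and all were killed 4 h after a last injection. The last injection held 20 mg/kg of morphine, given ip, or saline at 10 ml/kg, so the groups are named by drink and then injection: saccharin-saline, saccharin-morphine, morphine-saline and morphine-morphine. No group went without a sweet or drugged drink or without an injection, the sources used here do not give the amount of morphine drunk, and the labels do not say whether a sample is 1 mouse or a pool, so p-values measure the spread between these samples.

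The arrays lie on 6 chips, and each chip holds 1 array of each group. Median raw intensity ran from 164 to 543 over the arrays, and normalized values of any pair of arrays had an r across genes of 0.937 to 0.993. The number of arrays limits the precision. Replicate 32 of the morphine-saline group and replicate 31 of the morphine-morphine group, both on chip 2, stand apart from the other 22 arrays in most of the genes described here, so the tests between groups are given for 24 arrays and for the 22 without them. Relations between genes are given for the 22. In whole tissue, fewer cells of a type and less RNA per cell cannot be told apart. A probe's brightness depends on its own sequence, so levels are compared between arrays for 1 probe and never between genes.

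Drd1, the D1 dopamine receptor gene, had 1 probe (ILMN_2734062). In the saccharin-saline group its log2 intensity ran from 12.81 through a median of 13.71 to 14.02, and in the saccharin-morphine group from 13.43 through 13.64 to 14.07. In the morphine-saline group it ran from 10.07 through 13.65 to 14.00, and in the morphine-morphine group from 9.83 through 13.49 to 14.11. The lowest array of each morphine-drinking group was replicate 32 or replicate 31. Without these arrays the group means were 13.59 ± 0.419 (SD, n = 6) and 13.71 ± 0.311 (n = 6) in saccharin drinkers, and 13.67 ± 0.370 (n = 5) and 13.64 ± 0.320 (n = 5) in morphine drinkers, under saline and morphine respectively. All 4 groups overlapped.

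Tac1 encodes the precursor of substance P and neurokinin A, neuropeptides of direct-pathway neurons. Its brighter probe (ILMN_1251000) ran from 12.39 through a median of 13.30 to 13.65 in the saccharin-saline group and from 12.95 through 13.51 to 13.99 in the saccharin-morphine group. It ran from 9.42 through 13.08 to 13.60 in the morphine-saline group and from 9.89 through 13.40 to 13.93 in the morphine-morphine group. The 4 groups overlapped, and without replicates 32 and 31 the lowest morphine-drinker values were 12.73 and 13.30. The other Tac1 probe (ILMN_1219905) was dim, with values from 6.44 to 9.37 on the 22 arrays, and it did not share the low values: replicate 32 stood at 7.92 and replicate 31 at 7.04, both inside that range.

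Isl1 encodes a LIM-homeodomain transcription factor of developing direct-pathway neurons and of cholinergic interneurons. Its probe (ILMN_2727472) ran from 10.34 through a median of 11.38 to 11.99 in the saccharin-saline group and from 10.96 through 11.36 to 11.75 in the saccharin-morphine group. It ran from 7.84 through 10.89 to 11.62 in the morphine-saline group and from 7.36 through 11.35 to 11.71 in the morphine-morphine group. The widest spread outside the 2 low arrays was in the saccharin-saline group, where replicate 5 was the highest of all 24 arrays and replicate 8 the lowest of the 22.

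Drd2 encodes the D2 dopamine receptor, the counterpart of Drd1 in the indirect pathway. Its probe (ILMN_2988228) ran from 10.77 through a median of 11.59 to 11.83 in the saccharin-saline group and from 11.04 through 11.66 to 12.33 in the saccharin-morphine group. It ran from 7.69 through 11.61 to 11.94 in the morphine-saline group and from 7.08 through 11.55 to 12.04 in the morphine-morphine group. The medians of the 4 groups lay close together, and the lowest values of the morphine drinkers were again replicates 32 and 31. The lowest of the 22 arrays was replicate 8 of the saccharin-saline group, which was also the lowest of them for Drd1, Tac1, Isl1 and Bcl11b.

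The promoters of both dopamine receptor genes are shown for reference, and whether they bear on the levels described here was not tested. They are RefSeq sequences of build GRCm38.p6, from 250 bases before to 50 bases after a transcription start, and they carry matches to GGGCGG, the GC box bound by Sp1-type factors, in capitals on either strand. Drd1 has 2 annotated starts, at chr13:54054731-54055030 and chr13:54055609-54055908 on the minus strand. The Drd2 window is chr9:49340153-49340452 on the plus strand.
Drd1 start A: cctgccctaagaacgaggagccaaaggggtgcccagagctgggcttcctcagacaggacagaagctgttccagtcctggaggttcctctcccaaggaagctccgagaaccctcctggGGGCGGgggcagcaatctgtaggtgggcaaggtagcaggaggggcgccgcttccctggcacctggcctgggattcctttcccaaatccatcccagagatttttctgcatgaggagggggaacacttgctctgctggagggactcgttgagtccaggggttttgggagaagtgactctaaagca
Drd1 start B: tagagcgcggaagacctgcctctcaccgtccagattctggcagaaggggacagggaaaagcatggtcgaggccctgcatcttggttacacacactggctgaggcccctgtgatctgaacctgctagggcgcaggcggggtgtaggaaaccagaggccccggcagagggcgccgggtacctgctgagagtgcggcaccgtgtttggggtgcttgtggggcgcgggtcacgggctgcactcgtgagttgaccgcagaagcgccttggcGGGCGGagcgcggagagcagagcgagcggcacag
Drd2: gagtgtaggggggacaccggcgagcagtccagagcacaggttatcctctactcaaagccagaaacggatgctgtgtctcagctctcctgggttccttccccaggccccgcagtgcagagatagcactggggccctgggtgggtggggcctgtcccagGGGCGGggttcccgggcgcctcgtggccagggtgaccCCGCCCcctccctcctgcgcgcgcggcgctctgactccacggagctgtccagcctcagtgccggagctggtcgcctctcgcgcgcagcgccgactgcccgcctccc

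GGGCGG occurred once in each Drd1 window and at 2 places in the Drd2 window, and 35.7% of 32851 RefSeq promoter windows hold it. Neither gene's windows held TATAAA (the TATA box, in 13.6% of windows), CCAAT (37.4%) or TGACG, the core of the cAMP response element (20.8%), on either strand. These 4 motifs share no letter run that would make 1 match count for another. The Drd1 windows had GC contents of 59.3% and 65.7% and the Drd2 window 70.3%, against a median of 52.7% over all windows. Among the other members with a window, TGACG occurred at 2 places in each of Tac1, Isl1 and Gpr6, the matches in Gpr6 overlapping on opposite strands, and Bcl11b alone held TATAAA. A match is a run of letters and not a measured binding site.

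Gpr6 encodes an orphan receptor that raises cAMP without a known transmitter and is enriched in indirect-pathway neurons. Its probe (ILMN_2592996) ran from 9.45 through a median of 9.74 to 10.25 in the saccharin-saline group and from 9.59 through 10.13 to 10.38 in the saccharin-morphine group. It ran from 7.98 through 9.63 to 10.12 in the morphine-saline group and from 7.12 through 9.84 to 10.03 in the morphine-morphine group. Replicates 32 and 31 were again the lowest arrays, and the groups overlapped.

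Ppp1r1b encodes DARPP-32, which inhibits protein phosphatase 1 once protein kinase A has phosphorylated it and so joins dopamine receptors to cAMP signalling in both pathways. The brightest of its 3 probes (ILMN_2954824) ran from 14.00 through a median of 14.25 to 14.54 in the saccharin-saline group and from 13.94 through 14.46 to 15.39 in the saccharin-morphine group. It ran from 10.47 through 14.36 to 14.88 in the morphine-saline group and from 10.72 through 14.33 to 15.07 in the morphine-morphine group. The high end of the 22 arrays came from chip 6, whose 4 arrays stood at 14.52 to 15.39 against 13.94 to 14.60 elsewhere. The other Ppp1r1b probes did not show this: ILMN_2651660 ran from 10.78 to 11.77 on chip 6 against 10.80 to 11.93 on the other chips, and ILMN_1253473 from 9.04 to 9.35 against 8.97 to 10.34.

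Bcl11b, also called Ctip2, encodes a zinc finger transcription factor of medium spiny neurons that deep-layer cortical projection neurons use as well. The brightest of its 4 probes (ILMN_2611022) ran from 13.45 through a median of 13.73 to 13.90 in the saccharin-saline group and from 13.51 through 13.80 to 14.08 in the saccharin-morphine group. It ran from 13.01 to 13.97 in the morphine-saline group and from 13.35 to 13.90 in the morphine-morphine group. Among the brightest probes of the 7 genes it varied least, with an SD of 0.147 over the 22 arrays. The other Bcl11b probes had SDs of 0.172, 0.222 and 0.330. In the brightest probe replicates 32 and 31 stood at 13.01 and 13.35 against 13.45 to 14.08 on the others.

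**Figure D1:**
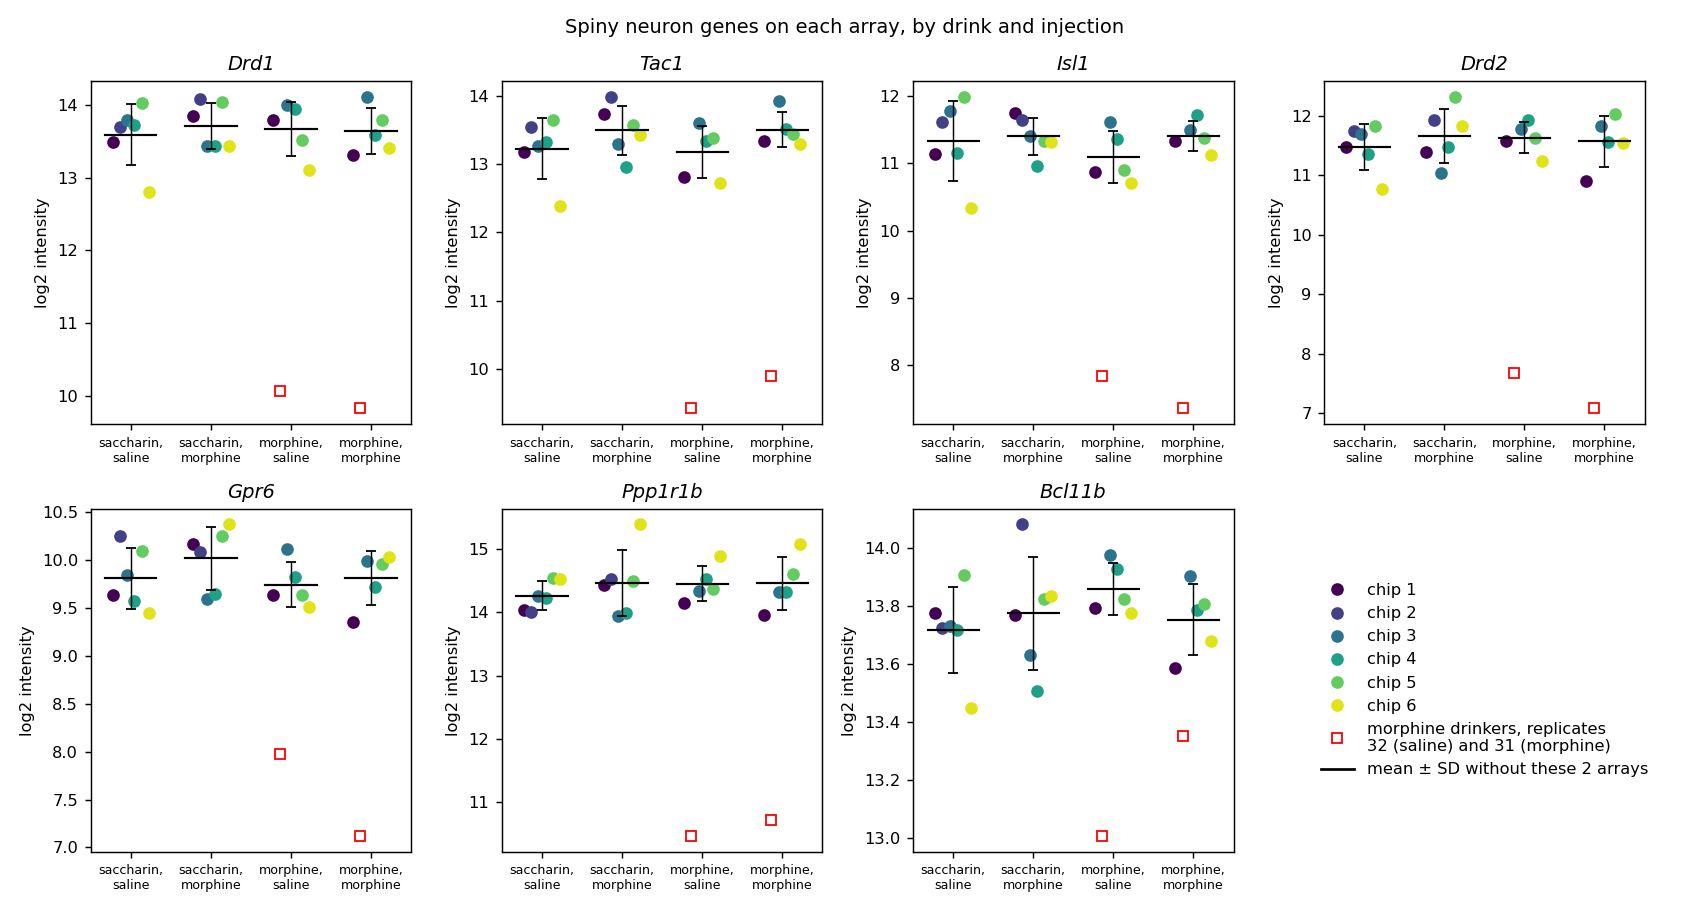
Log2 intensity of the probe that stands for each gene on every array, by group (drink, then injection), coloured by chip. Red squares are replicate 32 of the morphine-saline group and replicate 31 of the morphine-morphine group, and bars are mean ± SD without them. Drd1 stands at 10.07 and 9.83 on these arrays and at 12.81 to 14.11 on the other 22, and the 4 groups overlap in every panel.

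On the 2 low arrays the 7 genes fell into unequal steps below the 2 saccharin arrays of the same chip. Drd1 differed by -3.82 log2 units on replicate 32 and by -4.06 on replicate 31. The difference was -4.16 and -4.76 for Drd2, -4.35 and -3.88 for Tac1, -3.78 and -4.27 for Isl1, and -3.80 and -3.54 for the brightest Ppp1r1b probe. Gpr6 differed by -2.19 and -3.05. The direct-pathway receptor gene and the indirect-pathway receptor gene were thus low together on both arrays. These are differences of single arrays and were not tested.

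Bcl11b was the exception in size, at -0.90 and -0.55, and its other probes lay between -0.81 and -0.09. Its raw intensity on replicate 32, 14260, was inside the range of the chip 2 saccharin arrays, 12178 to 18274, and on replicate 31, 9586, it was lower, while that of Drd1 on replicate 32 was 2156 against 12047 to 18155. Under scaling to a common median the Bcl11b differences shrank to -0.30 and -0.34 and those of Drd1 were -3.10 and -3.80. Drd2, Isl1 and Gpr6 stood at 7.08 to 7.98 on the 2 arrays, close to the filter of 7.05, and whether they were above background there was not tested. Their differences depend on the background step, and a floor may limit them. Without that step they were -3.63 and -4.01 for Drd2, -3.31 and -3.63 for Isl1, and -1.83 and -2.40 for Gpr6.

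All 7 genes were below all 22 other arrays on replicate 32, where 7.5% of the 13748 genes were, and all 7 on replicate 31, where 11.3% were. Of the 13 probes, 12 and 11 were below. The exceptions were the dim Tac1 probe on both arrays and Bcl11b probe ILMN_1223119 on replicate 31. A shortfall of over 2 log2 units was less common among all genes: 66 genes (0.48%) on replicate 32 and 95 (0.691%) on replicate 31, which include every gene here but Bcl11b. For Gpr6 on replicate 32 this depended on the processing. Its difference was -1.83 with no background step, -1.72 under scaling to a common median and -1.84 with the authors' log2 values. The genes were listed with these arrays known to be low, so the counts describe and do not test.

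Other spiny neuron genes were low on the same arrays. Of 23 tested genes common to both pathways, 22 were below all 22 other arrays on replicate 32 and 21 on replicate 31, and their mean log2 intensity was 10.69 and 10.72 against 12.44 to 13.16 elsewhere. Arpp21, a cAMP-regulated phosphoprotein gene, stood at 13.68 and 13.43 against 15.38 to 15.87, and Pde1b, a calcium-activated phosphodiesterase gene, at 13.22 and 13.20 against 15.23 to 15.81. Hpca, the hippocalcin gene, stood at 14.86 and 15.32 against 14.90 to 15.53 and was inside the range on replicate 31. The common spiny neuron markers of the labelled tissue were thus reduced on these arrays.

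Of the peptide genes, Pdyn, the prodynorphin gene of direct-pathway neurons, stood at 11.67 and 11.41 against 12.96 to 14.52. Penk, the proenkephalin gene of indirect-pathway neurons, stood at 8.98 and 8.68 against 10.66 to 12.33. Of the direct-pathway list 5 and 4 of 7 tested genes were below all 22 arrays, and of the indirect-pathway list 3 and 4 of 7, against 7.5% and 11.3% of all genes. On replicate 32, where 9.16% of all genes were above all 22, each list also had 1 such gene. These were Eya1, at 8.69 against 7.85 to 8.67, and Adk, at 13.14 against 12.79 to 13.11. Ebf1 and Plxdc1 were higher than on the chip 2 saccharin arrays on both low arrays. Among 24 tested genes of dopamine and cAMP signalling around DARPP-32, 12 and 14 were below all 22 arrays. This signalling list shares Pde1b, Gng7 and other genes with the list common to both pathways, and each shared gene was below on both arrays. Both peptide genes therefore followed the receptor genes of their pathway on these arrays.

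Lists of markers of other cells were low, high or inside their range on the 2 arrays, depending on the cell type. The mean of 9 tested cortical excitatory neuron markers (of 11 listed) was 11.28 on replicate 32 and 11.27 on replicate 31, against 9.44 to 11.29 on the other arrays. Of these markers 2 and 3 were above all 22 arrays, as were 9.16% and 10.6% of all genes. Neurod2, which encodes a neuronal basic helix-loop-helix transcription factor, stood at 12.48 and 13.08 against 7.94 to 11.45. Slc17a7, the vesicular glutamate transporter gene of cortical neurons, stood at 13.15 and 13.50 against 8.51 to 13.46. Not all of the list was high: Lamp5, the second brightest of it, stood at 12.72 and 12.26 against 12.69 to 13.77 and was the 1 gene of the list below all 22 arrays, on replicate 31. Mef2c, the brightest, stood at 13.64 and 13.40, inside its range of 12.37 to 13.96. The offset of 50 keeps every value above 0, so whether a marker was absent was not tested.

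Cholinergic interneuron markers, a list of 6 that holds Isl1, were low on the 2 arrays, with a mean of 7.29 and 7.05 against 8.67 to 10.19. Chat, the choline acetyltransferase gene, stood at 6.99 and 7.63 against 9.13 to 10.91. The oligodendrocyte list was lower at 13.24 and 13.21 against 13.44 to 14.03, and the astrocyte list higher at 13.07 and 12.85 against 12.29 to 12.70. On each array 2 of the 6 astrocyte genes were above all 22, as were 9.16% of all genes on replicate 32 and 10.6% on replicate 31. The largest difference was in Gfap, at 13.70 and 12.74 against 11.06 to 12.08, while Aldh1l1 stood at 9.96 and 9.90 inside its range of 9.52 to 10.29. The list of striatal interneuron markers, which shares Chat, Slc5a7 and Slc18a3 with the cholinergic list, had a lower mean of 9.68 and 9.66 against 10.03 to 10.37, but the median difference of its 10 genes from the chip 2 saccharin arrays was -0.01 and 0.05. Of its genes 2 and 4 were below all 22 arrays, against 7.5% and 11.3% of all genes. Above all 22 were 0 and 2 of them, against 9.16% and 10.6% of all genes. The somatostatin gene Sst stood at 13.88 and 13.96 against 13.13 to 13.91. The endothelial list lay at 10.52 on replicate 32, inside its range of 10.30 to 10.98, and at 10.18 on replicate 31, while the microglial list lay at 10.52 and 9.85 against 9.75 to 10.38. The thalamus and septum list was above its range of 8.97 to 9.80 on replicate 32, at 9.94, and inside it on replicate 31, at 9.47. The lists of choroid plexus and blood genes lay inside their ranges on both arrays. The part of these cells in the values of the spiny neuron genes was not tested.

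**Figure D2:**
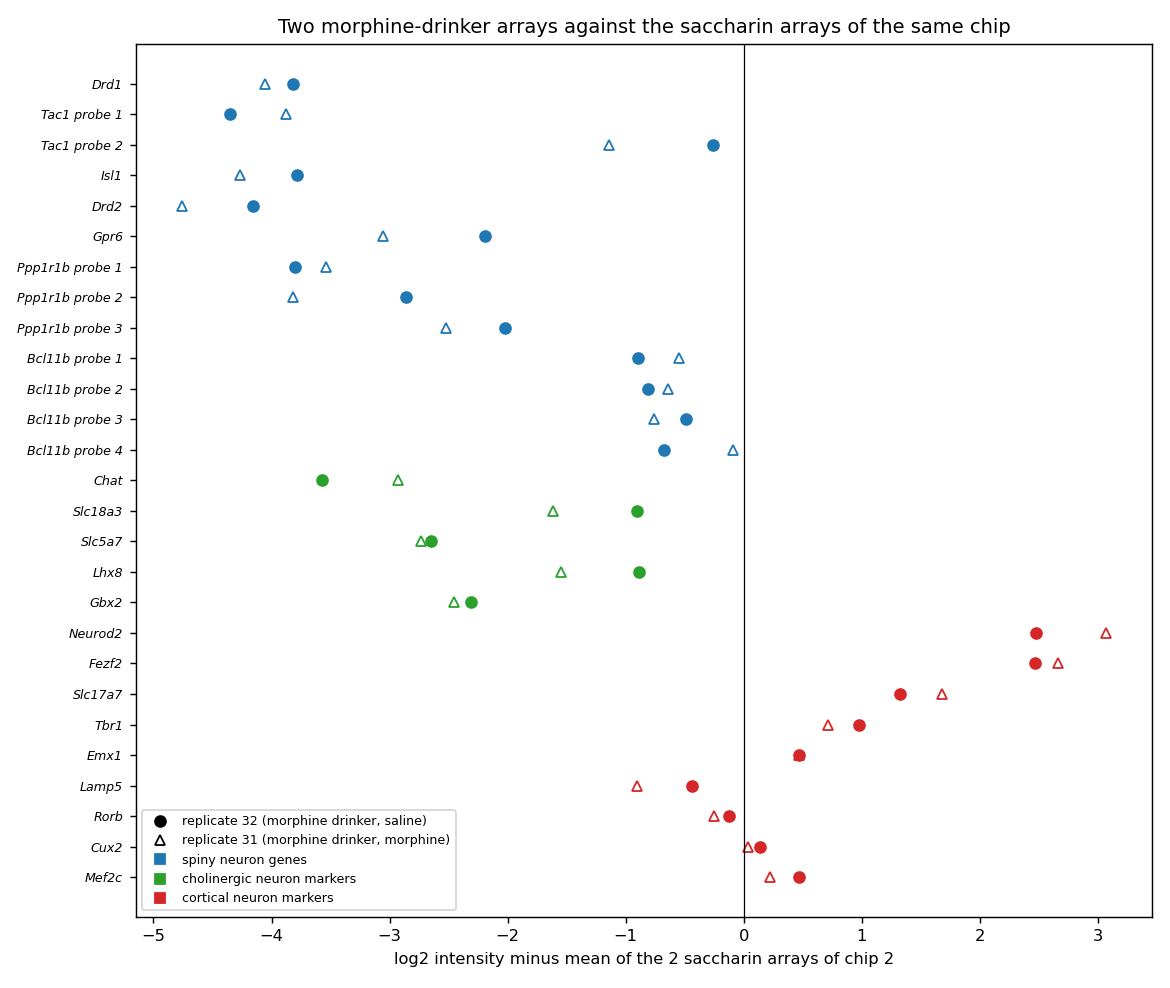
Log2 intensity on replicate 32 (filled circles) and replicate 31 (open triangles) minus the mean of the 2 saccharin arrays of chip 2, for each probe of the spiny neuron genes and for cholinergic and cortical markers. Drd1, the brighter Tac1 probe, Isl1 and Drd2 lie between -4.76 and -3.78, the Bcl11b probes between -0.90 and -0.09, and Neurod2 at 2.48 and 3.07.

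The comparison of injections asked how 20 mg/kg morphine changed the striatum after 4 h. In saccharin drinkers the brightest probe of all 7 genes averaged higher after morphine than after saline, by 0.06 to 0.27 log2 units. None of the 7 passed the test (limma, 24 arrays, adjusted p from 0.930 to 0.986, where 0.371% of all genes passed). None had an unadjusted p under 0.05 either, as 7.72% of all genes did. The median over the 7 genes was 0.19 and over all genes -0.00623. With 22 arrays the differences were the same, the standard errors (SE) smaller and again none passed (adjusted p from 0.640 to 0.946, with 0.436% of all genes called). No member had an unadjusted p under 0.05 there, against 9.39% of all genes.

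Tac1 had the largest of these differences, 0.27 (SE 0.169 with 22 arrays, adjusted p = 0.640 by limma), and was higher on 4 of 6 chips. Drd1 differed by 0.12, with a 95% confidence interval from -0.21 to 0.45 in the 22 arrays, and Drd2 by 0.19 (-0.21 to 0.59). For Ppp1r1b the 3 probes gave 0.20, 0.36 and 0.14, and the second of these, ILMN_2651660, had an unadjusted p of 0.0400 and an adjusted p of 0.539 in the limma fit of all probes. The 22-array interval was widest for Isl1, from -0.35 to 0.48, and narrowest for Bcl11b, from -0.13 to 0.25. Not every dimmer probe rose. The dim Tac1 probe had means of 7.62 after saline and 7.13 after morphine, and Bcl11b probe ILMN_2443624 had 10.39 and 10.29. Bcl11b probe ILMN_2436183 had 13.065 and 13.064, and ILMN_1223119 rose from 8.81 to 8.97.

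In morphine drinkers the injection left 3 genes above 0 and 4 below with 24 arrays, from -0.15 for Drd2 to 0.36 for Tac1, and none passed (limma, adjusted p from 0.981 to 0.999, where 0.0655% of all genes passed). None had an unadjusted p under 0.05, against 6.36% of all genes. With 22 arrays the range was -0.11 to 0.33, and none passed (adjusted p from 0.748 to 0.998, with 0.0873% of all genes called). No member had an unadjusted p under 0.05 there, against 7.11% of all genes. Tac1 was higher after morphine on 6 of 6 chips with 24 arrays, at 0.36 (SE 0.546, adjusted p = 0.981), and on 5 of 5 with 22 arrays, at 0.33 (SE 0.185, unadjusted p = 0.0905, adjusted p = 0.748 by limma). Bcl11b was lower on 5 of 5 chips with 22 arrays, at -0.11 (SE 0.0979, adjusted p = 0.879).

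The comparison of drinks asked what long-term morphine drinking did to the same genes, and here the direction of several genes depended on the 2 low arrays. Under saline injection all 7 genes lay below 0 with 24 arrays, from -0.78 for Isl1 (SE 0.532, adjusted p = 0.986 by limma) to -0.00029 for Bcl11b. With 22 arrays 5 of the 7 lay above 0, with a range from -0.19 for Isl1 to 0.21 for Drd2. Drd1 turned from -0.52 (SE 0.521) to 0.13 (SE 0.167), and Drd2 from -0.50 (SE 0.597) to 0.21 (SE 0.204). No member passed with 24 or 22 arrays, and of all genes 0% did in each, while 4.6% and 5.38% had an unadjusted p under 0.05, and no member did.

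Under morphine injection all 7 genes again lay below 0 with 24 arrays, but with 22 arrays only 3 lay above 0 and 4 stayed below. With 24 arrays the 7 genes lay between -0.84 for Drd2 and -0.09 for Bcl11b, and with 22 arrays between -0.16 for Gpr6 and 0.09 for Tac1. Ppp1r1b moved from -0.63 (SE 0.486) to -0.02 (SE 0.148). No member passed by limma (0% of all genes in each), the lowest adjusted p being 0.868 with 24 arrays and 0.977 with 22. No member had an unadjusted p under 0.05, against 5.51% and 5.03% of all genes.

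Removing the 2 arrays lowered the SE of the drink difference under saline by a factor of 3.11 for Drd1, 3.01 for Tac1, 2.56 for Isl1, 2.93 for Drd2, 2.07 for Gpr6, 3.28 for Ppp1r1b and 1.45 for Bcl11b. The drink intervals of the 7 genes then lay within -0.63 and 0.64 under saline and within -0.53 and 0.50 under morphine. With 24 arrays they had reached -1.90 and -2.10. For each of the 7 genes, the difference of either low array from the chip 2 saccharin arrays lay below the drink intervals of the other 22. Such an interval is of group means and not of single arrays. The genes were also listed with these arrays known to be low, so this describes and does not test.

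The interaction, which asks whether the response to the injection differed between the drinks, ran from -0.34 for Drd2 to 0.12 for Isl1 with 24 arrays and from -0.25 for Drd2 to 0.25 for Isl1 with 22. None passed by limma (lowest adjusted p 0.991 and 0.867, with 0% of all genes called in each), and none had an unadjusted p under 0.05, against 5.26% and 6.81% of all genes. For Drd2 the response was 0.19 in saccharin drinkers and -0.06 in morphine drinkers with 22 arrays, a difference of -0.25 with an interval from -0.85 to 0.34.

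**Figure D3:**
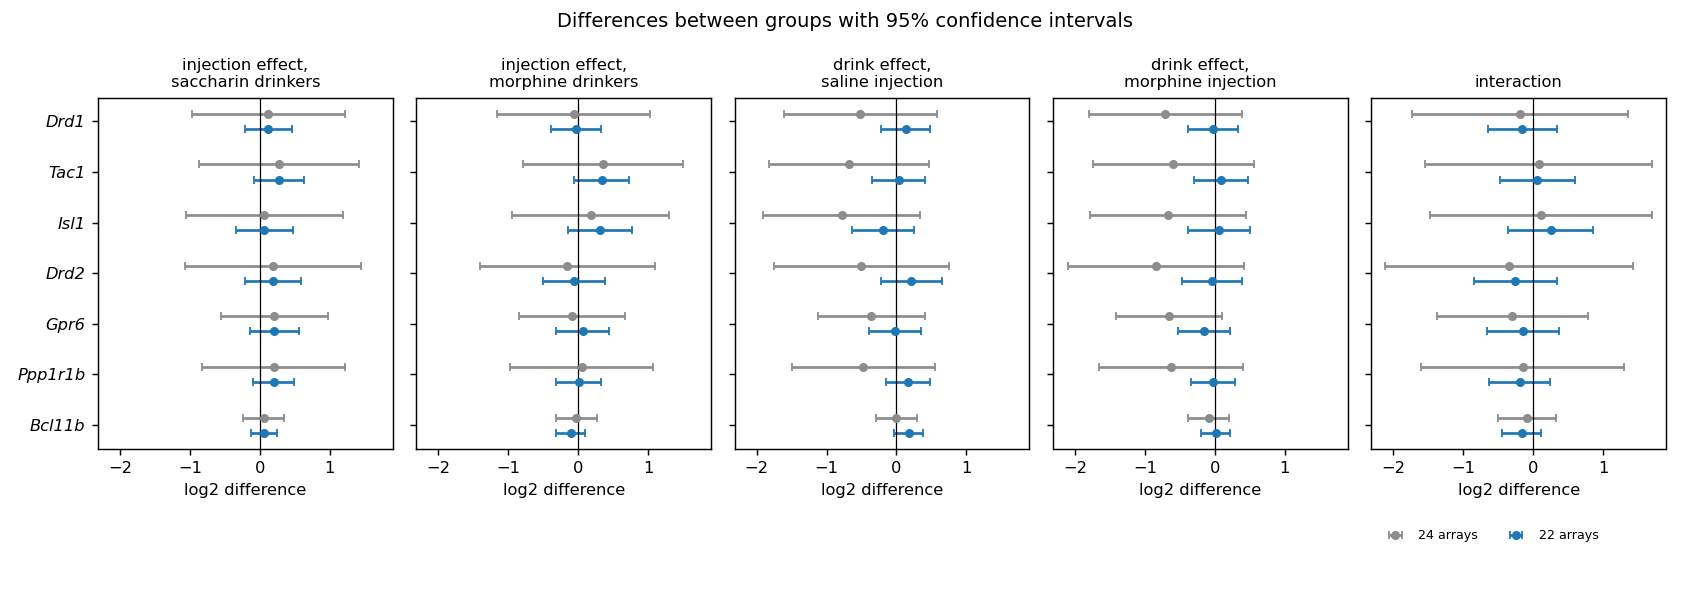
Log2 differences of the 7 genes with 95% confidence intervals from the limma fit, for 24 arrays (grey) and for the 22 arrays without the 2 low ones (blue). Every interval holds 0. The drink differences with 24 arrays lie at or below 0 for every gene, and the 22-array intervals are narrower.

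The wider spiny neuron lists gave no call. None of the 7 direct-pathway, 7 indirect-pathway, 23 common and 24 signalling genes tested rose or fell in any of the 5 comparisons, with 24 or with 22 arrays. The common list shared the turn of direction: under saline injection 21 of 23 genes lay below 0 with 24 arrays (median -0.23, against 0.00305 over all genes) and 21 of 23 above 0 with 22 (median 0.14, against -0.007). Pdyn moved from -0.33 to 0.07 and Penk from -0.28 to 0.28 in that comparison. After the morphine injection in saccharin drinkers 21 of the 23 common genes were above 0, with a median of 0.16 (-0.00623 over all genes), and 1 of 23 had an unadjusted p under 0.05 with 22 arrays, where 9.39% of all genes did.

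The balance of the pathways, taken on each array as the mean of Drd1, Tac1 and Isl1 minus the mean of Drd2 and Gpr6, was close in all groups. Without the 2 arrays it was 2.07 ± 0.205 log2 units (SD, n = 6) in the saccharin-saline group and 2.02 ± 0.334 (n = 6) in the saccharin-morphine group. It was 1.95 ± 0.122 (n = 5) in the morphine-saline group and 2.16 ± 0.305 (n = 5) in the morphine-morphine group. With the 2 arrays these were 1.84 ± 0.298 (n = 6) and 2.12 ± 0.289 (n = 6). The ranges of the 4 groups overlapped. The size of the balance rests on the probes' own brightness, so only its differences between arrays can be read.

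On replicate 32 the balance was 1.28 and on replicate 31 it was 1.93, against 1.62 to 2.54 on the other 22. Under the other scalings it was 1.03 to 1.37 on replicate 32 and 1.47 to 1.76 on replicate 31. Drd2 and Gpr6 lay near the dim end of the scale on both arrays, where a floor may limit how far they can fall, so these values do not rank the pathways.

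**Figure D4:**
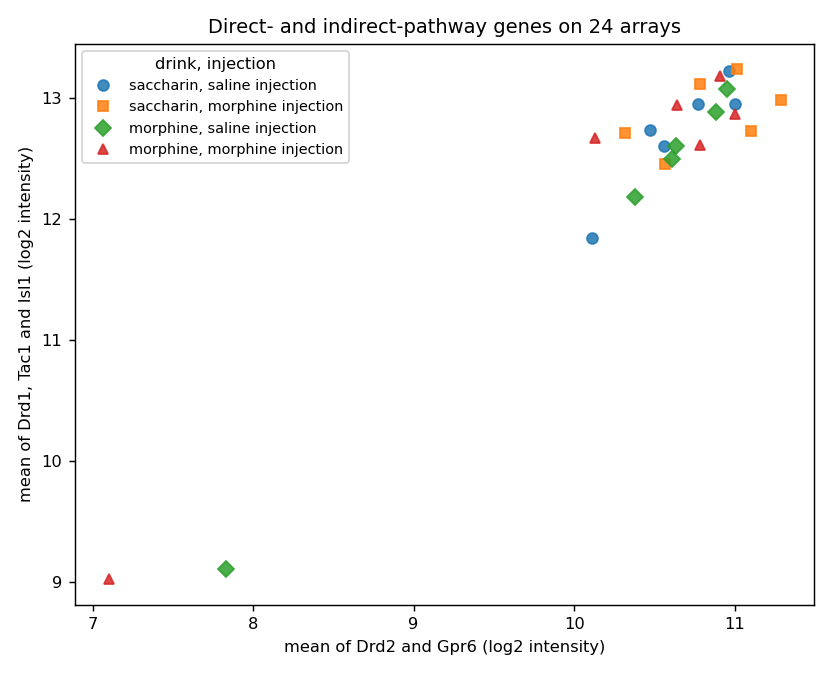
Mean log2 intensity of the direct-pathway genes Drd1, Tac1 and Isl1 against that of the indirect-pathway genes Drd2 and Gpr6 on each of 24 arrays, by group. The 2 arrays at the lower left are replicate 32 of the morphine-saline group and replicate 31 of the morphine-morphine group, and the other 22 of all 4 groups intermingle at the upper right.

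Across the 22 arrays the genes varied together. The arrays share chips and 1 normalization, so 28 relations (21 pairs of genes, and 7 genes against cortical markers) were computed with and without centring each gene on its chip, with two-sided permutation tests of 100000 resamples adjusted by Benjamini-Hochberg over the 28. Of the 21 pairs, 19 had a positive Pearson's r and 16 an adjusted p under 0.05, and after centring on the chip 21 were positive (0.383 to 0.851) and 18 had an adjusted p under 0.05. Drd1 and Drd2, the receptor genes of the 2 pathways, had an r of 0.782 (permutation p = 3e-05, adjusted 0.000168) and a Spearman's rho of 0.717 (p = 0.00029, adjusted 0.00106). Without the 2 arrays farthest from the median of Drd1 r was 0.680, and after centring on the chip it was 0.838 (adjusted permutation p = 0.00056).

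Tac1 and Isl1 had the highest r before centring, 0.825 (adjusted permutation p = 0.00014; rho 0.720, adjusted p = 0.00106), which became 0.676 without the 2 farthest arrays and 0.736 within chips. Drd1 and the brightest Ppp1r1b probe showed no relation over all 22 arrays (r = -0.108, permutation p = 0.633, adjusted p = 0.684, and rho 0.0633, adjusted p = 0.820). Within chips they had the closest relation of any pair (r = 0.851, adjusted permutation p = 0.00028). The 4 arrays of chip 6 were high in the brightest Ppp1r1b probe and had Drd1 values of 12.81 to 13.43, and the cause was not tested. The other Ppp1r1b probes were not high on chip 6, and their relation to Drd1 was not computed. Isl1 and Drd2 had the lowest r within chips, 0.383 (adjusted permutation p = 0.155).

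Levels of the spiny neuron genes also ran against the cortical markers on the 22 arrays. For Isl1 r was -0.843 (permutation p = 2e-05, adjusted 0.00014) and rho -0.913 (p = 1e-05, the smallest these permutations can give, adjusted 0.00014). It was -0.835 without the 2 farthest arrays and -0.808 within chips (adjusted permutation p = 0.00056). In the saccharin-saline group, replicate 5 had the highest Isl1 of all arrays, 11.99, and the lowest cortical mean, 9.44, and replicate 8 had the lowest Isl1 of the 22, 10.34, and the highest cortical mean, 11.29.

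The other members ranged from an r of -0.730 for Tac1 to -0.0192 for the brightest Ppp1r1b probe. For Tac1 the adjusted permutation p was 0.00049, rho -0.761 (adjusted p = 0.00103) and r within chips -0.604. For that Ppp1r1b probe the adjusted permutation p was 0.929, and r became -0.517 within chips (adjusted permutation p = 0.0129). For Drd2 r was -0.404 (adjusted permutation p = 0.0799) and -0.177 within chips (adjusted p = 0.472). In all, 5 of the 7 genes had an adjusted p under 0.05 over all 22 arrays and 4 within chips. These relations are across arrays that all carry a striatum label, and what sets them was not tested.

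**Figure D5:**
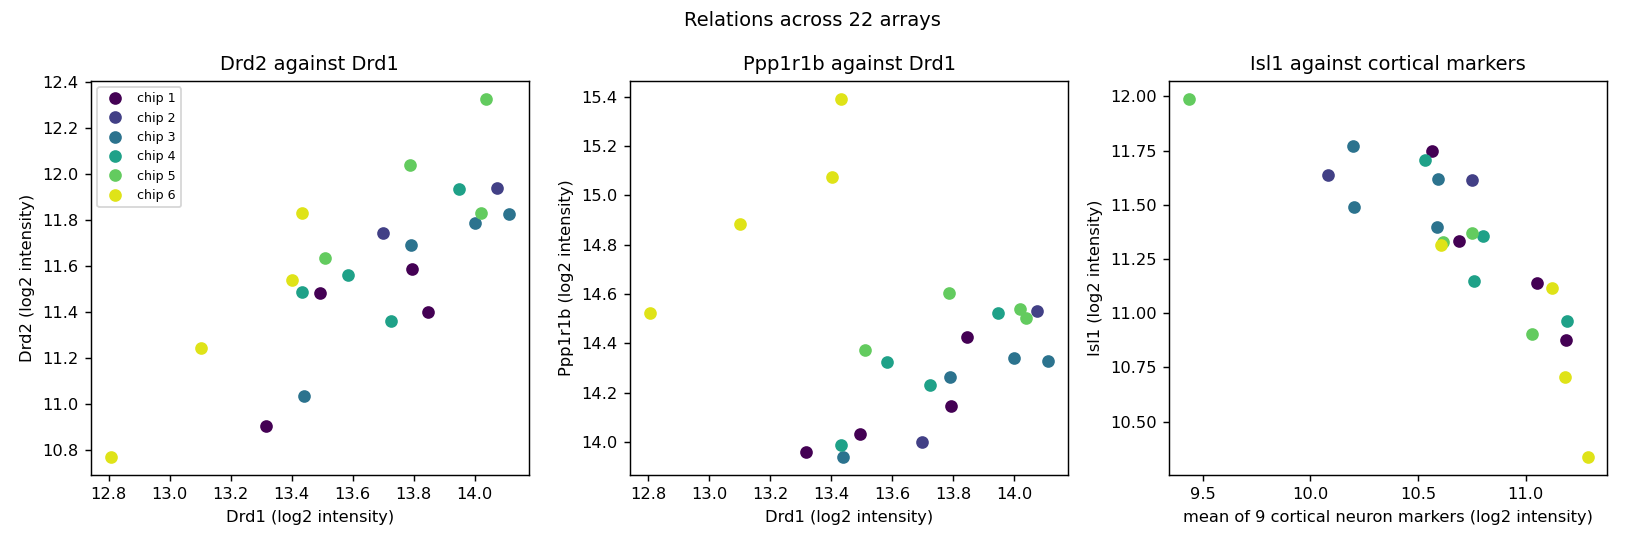
Log2 intensity on each of the 22 arrays, coloured by chip: Drd2 against Drd1 (r = 0.782), Ppp1r1b against Drd1 (r = -0.108 over all arrays and 0.851 within chips), and Isl1 against the mean of 9 cortical neuron markers (r = -0.843). The Ppp1r1b values are of its brightest probe, in which the 4 arrays of chip 6 are high.

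The genes most like the 7 members, by Pearson's r over the 22 arrays with their mean standardized level after removal of group and chip terms, were Krt10 (0.957), Pcp4l1 (0.955), Meis2 (0.947), Akap9 (0.947) and Rem2 (0.944). For the direct-pathway mean they were Meis2 (0.935), Gng7, Zfp933, Grik2 and Gad2, and for the indirect-pathway mean Foxp1 (0.917), Arhgdib, Serpina9, Rarb and Krt10. On the 2 low arrays, which this ranking did not use, 4 of the 5 genes named for the direct pathway and 4 of the 5 named for the indirect pathway were below all 22 others on both arrays. Of all genes 7.5% were below on replicate 32 and 11.3% on replicate 31, and the share below on both was not computed. The ranking picked genes that follow members known to be low there, so these counts describe and do not test. Rarb, a retinoic acid receptor gene, stood at 8.43 and 8.38 against 11.17 to 12.58, and Foxp1, a forkhead transcription factor gene, at 9.89 and 10.07 against 11.07 to 12.23. The exceptions were Arhgdib, at 10.02 and 9.12 against 9.90 to 11.10, and Zfp933, at 10.50 and 10.59 inside its range of 9.98 to 10.87. The most opposed genes were Map2k3 (-0.904), Miat (-0.901), Adcy2 (-0.898), Ppm1e (-0.894) and Pitpna (-0.890). Miat, a long noncoding RNA gene of neurons, stood above all 22 other arrays on both low arrays, at 14.62 and 14.58 against 12.64 to 13.99. Ppm1e did so as well, at 13.73 and 13.74 against 11.58 to 12.87. Adcy2 and Pitpna were above only on replicate 32. Map2k3 was inside its range of 10.06 to 10.80 on both arrays, at 10.42 and 10.22.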

How the data were processed

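Linear probe intensity, not normalized between arrays, was deposited by the authors together with a table of log2 values, whose processing the sources used here do not give. The deposited log2 values lay within 0.0351 of quantile-normalized log2 intensity with no background step and served as an alternative. Intensities went through normexp background correction (offset 50), quantile normalization and log2 in limma 3.58.1 in R 4.3.3. Kept were probes with 1 gene symbol whose mean passed the 40th percentile (7.05), and the brightest stood for its gene. Quantile normalization gives every array the same distribution, so a gene's level is relative to the other genes of its array.

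All 13748 genes were fitted with lmFit and eBayes on group and chip as fixed terms, with 24 and with 22 arrays, and two-sided p-values were adjusted by Benjamini-Hochberg over all genes, with a threshold of 0.05. The fit was tested on simulated data. Permutation tests and figures used Python 3.11.15 with matplotlib 3.10.9. Named genes were all members with every annotated probe, up to 4 of the brightest genes of each list, and the 5 genes most alike or opposed. Ebf1, Eya1, Gfap, Aldh1l1 and Slc18a3 lie outside the 4 brightest of their lists and were named beside these after their values were seen. The members and gene lists were chosen with earlier results of these data known, and which of the brightest genes of a list to name was settled after their values were seen. Promoters are RefSeq sequences of GRCm38.p6, held for 6 of the 9 genes.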

Additional observations from a re-analysis of the deposited data

Results flagged for a closer look

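In 52 sets, each of 1 probe in 1 group of 6 arrays, the gap between the lowest or highest array and its neighbour was set against the group's whole range. An array was flagged where this ratio passed Dixon's 95% critical value, and 20 sets were flagged, where chance flags about 1 in 20 sets. Replicates 32 and 31 of the morphine drinkers gave 19 of the flags. The members were listed with these arrays known to be low, so the flags describe them.

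In the morphine-saline group replicate 32 was the lowest array by such a gap for Drd1 (10.07), Isl1 (7.84), Drd2 (7.69) and Gpr6 (7.98), for the brighter probe of Tac1 (9.42), for the 3 Ppp1r1b probes (10.47, 8.67 and 7.50) and for the Bcl11b probes ILMN_2611022 (13.01) and ILMN_2436183 (12.32). The nearest other array was at 13.10 for Drd1, 11.25 for Drd2 and 13.77 for the first of the Bcl11b probes.

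In the morphine-morphine group replicate 31 was the lowest array for Drd1 (9.83), Isl1 (7.36), Drd2 (7.08) and Gpr6 (7.12), for the brighter probe of Tac1 (9.89), for the 3 Ppp1r1b probes (10.72, 7.71 and 7.01) and for the Bcl11b probe ILMN_2443624 (9.35). The nearest other array was at 13.32 for Drd1, 10.91 for Drd2 and 10.18 for that Bcl11b probe.

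The remaining flag was the Bcl11b probe ILMN_2436183 in the saccharin-morphine group, where replicate 6 stood at 12.72 and the next array at 13.06. The other Bcl11b probes gave no flag in that group.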

How the results depend on the processing

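No spiny neuron gene passed the threshold in any of 5 comparisons under any of 45 settings (15 processing alternatives, 24 fits without 1 array and 6 without 1 chip), and the lowest adjusted p by limma was 0.384, for Tac1 after the injection in morphine drinkers with only those 2 groups fitted. Per setting and comparison, at most 1 gene had an unadjusted p under 0.05. No paired analysis by replicate number was possible because these numbers differ between the groups. Arrays were instead matched by chip, which is a block in every fit but those that change it. Signs of uncalled differences turned often. Of 518 gene values under the 15 alternatives 24 changed sign, 16 of them with a main value within 0.1 of 0. The number of arrays and the 2 low arrays limit what can be detected, and whether the dimmest values lay above background was not tested. Adding or removing these arrays changed drink differences by construction. For the other sign changes the cause was not tested.

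Without replicates 32 and 31 the sign turned for Gpr6 after the injection in morphine drinkers (0.067), for Drd1 (0.13), Tac1 (0.030), Drd2 (0.21), Ppp1r1b (0.17) and Bcl11b (0.17) in the drink difference under saline, and for Tac1 (0.090), Isl1 (0.058) and Bcl11b (0.010) in that under morphine. With scaling to a common median it turned for Isl1 (-0.012) and Bcl11b (-0.023) after the injection in saccharin drinkers, and for Bcl11b after the injection in morphine drinkers (0.037), in the drink difference under morphine (0.0405) and in the interaction (0.060). The Bcl11b drink difference under saline, -0.00029 as reported, was 0.0040 with cyclic loess, 0.0003 with the authors' log2 values, 0.0013 as a mean over probes and 0.0805 with array weights. As a mean over probes Tac1 was -0.11 after the injection in saccharin drinkers and Ppp1r1b -0.022 in morphine drinkers. With array weights Drd1 (0.079), Drd2 (0.065) and Gpr6 (0.14) turned after the injection in morphine drinkers, and the Tac1 interaction was -0.063.

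With 1 array or 1 chip left out of the 24, the injection difference in saccharin drinkers ranged from -0.36 to 0.53 for Drd1, -0.21 to 0.71 for Tac1, -0.37 to 0.51 for Isl1, -0.32 to 0.69 for Drd2, -0.022 to 0.54 for Gpr6, -0.26 to 0.57 for Ppp1r1b and -0.073 to 0.13 for Bcl11b. The low ends came without replicate 12 of the saccharin-morphine group, which leaves the chip 2 term on 1 saccharin array and the 2 low arrays. In morphine drinkers the ranges were -0.49 to 0.40 for Drd1, -0.12 to 0.80 for Tac1, -0.17 to 0.71 for Isl1, -0.60 to 0.41 for Drd2, -0.27 to 0.30 for Gpr6, -0.40 to 0.44 for Ppp1r1b and -0.17 to 0.023 for Bcl11b. For the first 6 genes of that list the ends came without replicate 32 or without replicate 31. The drink difference under saline ranged from -0.69 to 0.10 for Drd1, -0.88 to 0.012 for Tac1, -0.72 to 0.21 for Drd2, -0.50 to 0.023 for Gpr6, -0.64 to 0.13 for Ppp1r1b and -0.066 to 0.14 for Bcl11b. Under morphine it ranged from -0.98 to 0.0017 for Drd1, -0.84 to 0.11 for Tac1, -0.95 to 0.054 for Isl1, -0.83 to 0.0089 for Ppp1r1b and -0.16 to 0.0425 for Bcl11b. The high ends came without chip 2, which holds the 2 low arrays, but for Bcl11b under morphine, where it came without replicate 12. The remaining drink differences stayed below 0 in all these fits. They were Isl1 under saline (-1.01 to -0.19), and Drd2 (-1.17 to -0.042) and Gpr6 (-0.87 to -0.19) under morphine. The interaction ranged from -0.61 to 0.29 for Drd1, -0.40 to 0.57 for Tac1, -0.33 to 0.64 for Isl1, -0.85 to 0.22 for Drd2, -0.63 to 0.088 for Gpr6, -0.59 to 0.31 for Ppp1r1b and -0.23 to 0.043 for Bcl11b.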
